A study of Mus musculus with 6 samples.

Results

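The genes described here carry a numbered Zfp symbol, the mouse name given mostly to genes for C2H2 zinc finger proteins. They were taken from a deposited table of expression in thymocytes by that symbol and by a completed test of the 2 genotypes. The size and direction of the difference were not used. The level of expression did enter, since symbols with too little signal had no test. Where a symbol had several rows, the row with the highest summed level was kept. The table named 269 such symbols, of which 223 were tested, on 219 of the 13834 gene models with a test (37867 models in all). The 2 genotypes were knockout (KO) mice that lack the miR-181a-1 and miR-181b-1 genes, set against wild type (WT) mice, with 3 libraries of sorted CD4+CD8+ (double-positive) thymocytes each. All mice were of the C57bl6 strain, and the label names the lost genes as mir181a1/b1. The libraries came from total RNA with the TruSeq kit. The labels give neither the age of the mice nor whether the replicates were separate animals, and they place the deletion in no particular cell type.

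A C2H2 finger is a short loop of protein folded around a zinc ion that is held by a pair of cysteines and a pair of histidines, and rows of such fingers, joined by a conserved linker, read DNA bases. Many of these proteins also carry a KRAB domain, which recruits the corepressor Trim28 and with it the enzymes that lay down silent chromatin, for the most part over transposable elements. Others carry a SCAN domain, through which they pair with each other. In mammals these genes multiplied by local duplication, so that many lie in chromosomal clusters of close relatives. miR-181a is abundant in double-positive thymocytes and is known there for tuning the sensitivity of the T cell receptor.

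The authors' deposited table holds 1 FPKM value per genotype (fragment density scaled to transcript length and library size). How it was formed from the libraries is not stated. The values below are called pooled levels here, and they have no spread of their own. Error is given as an implied standard error (SE), found by dividing the absolute log2 ratio by the absolute value of the authors' test statistic, and it had a median of 0.33 over the Zfp genes and 0.35 over all tested models. A gene was called changed when its q-value in the authors' deposited table was under 0.05. Ratios are KO over WT throughout. The sequencing depth is not known. The double-positive markers Cd4, Cd8a, Cd8b1, Rag1, Rag2 and Cd3e were tested and none of them was called, with Rag1, for example, at 1193 FPKM in KO cells and 1220 FPKM in WT cells. The B cell, myeloid, erythroid and thymic epithelial markers summed to 0.242, 1.2, 0.567 and 0.0194 FPKM in KO cells. In WT cells the sums were 0.336, 2.33, 1.21 and 0.0558 FPKM, in the same order. The myeloid marker Itgam was called lower. No model was named Lyz2, Hba-a1 or Psmb11, so the myeloid, erythroid and epithelial sums each cover 3 of 4 listed markers. Among the double-negative markers, Il2ra, a subunit of the IL-2 receptor, was called higher, with 29.4 FPKM in KO cells and 2.89 FPKM in WT cells, and Kit, Cd44 and Il7r were not called. The part of these marker differences in the ratios below was not tested. In bulk RNA, fewer cells of a type and less RNA per cell cannot be told apart. The deleted microRNA genes themselves were not analysed here.

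The share of Zfp genes called changed between KO and WT thymocytes was close to that of all tested models. A larger share was higher and a smaller share lower than among all models, and also than among other coding genes. Of the 223 genes, 39 (17.5%) were called, against 17.1% of all tested models. Higher in KO cells were 9 genes, 4.04% of the family, where 1.79% of all tested models were called higher. Lower in KO cells were 30 genes, 13.5% of the family, where 15.3% of all tested models were called lower. The median log2 ratio of the family was 0.06, with quartiles of -0.50 and 0.38, and 52.0% of its genes had a ratio above 0. Over all tested models the median was -0.17, with quartiles of -0.72 and 0.26, and 40.4% of ratios were above 0. With q under 0.01 as the threshold, 3 Zfp genes were called higher, where 0.745% of all models were, and 21 lower, where 10.1% were. With q under 0.1, 14 were called higher and 35 lower, where 2.96% and 18.7% of all models were, in the same order. Counted against the median of all models, 18 Zfp genes were called higher, where 3.6% of all models were, and 23 were called lower, where 10.8% were.

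The family was expressed at modest levels. The pooled values ran between 0.191 and 236 FPKM in KO cells and between 0.270 and 190 FPKM in WT cells, and 87 genes had a mean of at least 10 FPKM over the genotypes. All Zfp rows together held 2492 FPKM in KO cells and 2588 FPKM in WT cells, which is 0.838% of the summed FPKM of the table in KO cells and 0.718% in WT cells. No tested gene was listed at 0. Of the 46 symbols without a test, 45 had too little signal by the authors' status, the highest at a mean of 0.287 FPKM, and 15 of those were listed at 0 in both genotypes. The authors' test had failed for the remaining one, Zfp759, at 1.31 FPKM in KO cells and 1.2 FPKM in WT cells.

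**Figure D1:**
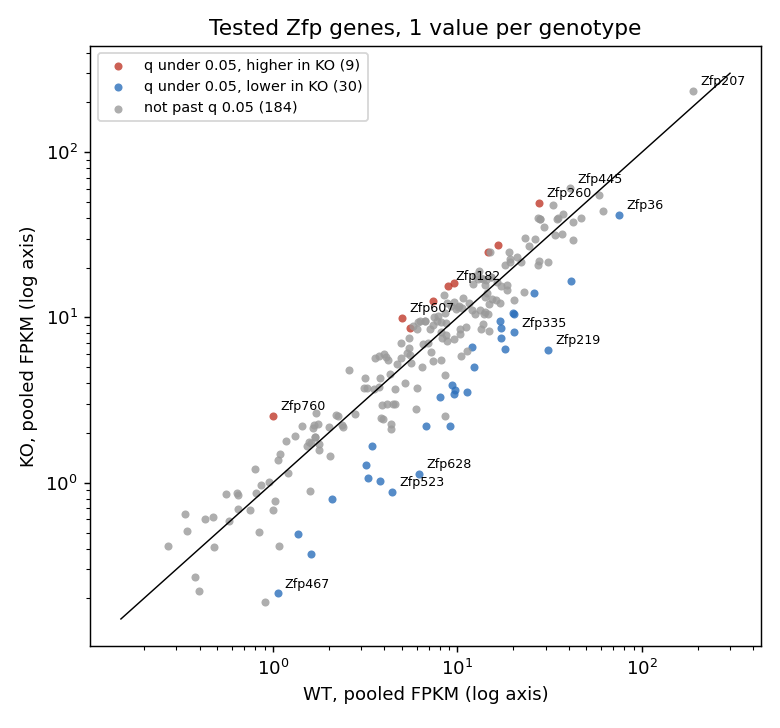
Pooled FPKM of the 223 tested Zfp genes in KO cells (vertical, log axis) and WT cells (horizontal, log axis), 1 point per gene, with the line of equal values. The 9 genes called higher in KO cells lie above the line, the 30 called lower lie below it, and Zfp207 is the highest point.

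Most of the abundant members were not called. Zfp207, known as BuGZ, which helps to load the checkpoint protein Bub3 at kinetochores, was the most abundant, with 236 FPKM in KO cells and 190 FPKM in WT cells (log2 ratio 0.31, implied SE 0.27). Zfp740 had 54.8 FPKM in KO cells and 58.6 FPKM in WT cells. Zfp313, whose product is the ubiquitin ligase Rnf114, had 44.2 FPKM in KO cells and 61.3 FPKM in WT cells. Each of these differences was within 2 implied standard errors. Zfp445, a KRAB protein that keeps imprinted genes methylated, stood at 60.4 FPKM in KO cells and 40.9 FPKM in WT cells (log2 ratio 0.56, SE 0.29), and its q-value in the authors' deposited table was 0.184. Zfp292, a large protein with 14 finger patterns, stood at 48.2 FPKM in KO cells and 32.9 FPKM in WT cells, with a q-value of 0.0664 in the authors' deposited table. Zfp422 (40.1 FPKM in KO cells, 46.5 FPKM in WT cells), Zfp592 (38.0 and 42.1 FPKM, in the same order) and Zfp664 (42.2 and 37.2 FPKM) were not called either. Among the 10 most abundant members, Zfp260 and Zfp36 were the called ones.

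The 9 genes called higher in KO cells differed by 1.56- to 2.55-fold. Zfp760, a KRAB gene on chromosome 17 (mm9 chr17:21844707-21862598), had the highest ratio of the family, with 2.54 FPKM in KO cells and 0.997 FPKM in WT cells (log2 ratio 1.35, SE 0.33), and a q-value of 0.000692 in the authors' deposited table. Zfp607 (mm9 chr7:28645603-28665844) had 9.97 FPKM in KO cells and 4.99 FPKM in WT cells (log2 ratio 1.00, SE 0.27), with a q-value of 0.00311 in the authors' deposited table. The most abundant of the 9 was Zfp260 (mm9 chr7:30877202-30901781), first described as a regulator of cardiac genes, with 49.4 FPKM in KO cells and 27.6 FPKM in WT cells (log2 ratio 0.84, SE 0.24), and a q-value of 0.00548 in the authors' deposited table.

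Zfp182, a KRAB gene on chromosome X, had 15.6 FPKM in KO cells and 8.90 FPKM in WT cells (log2 ratio 0.81, SE 0.28). Zfp397, with a SCAN pattern, had 25 FPKM in KO cells and 14.7 FPKM in WT cells (log2 ratio 0.77, SE 0.26). Zfp68, with a KRAB pattern, had 27.3 FPKM in KO cells and 16.6 FPKM in WT cells (log2 ratio 0.72, SE 0.24). These 3 genes thus rose by similar factors from different levels. Zfp329 had 16.2 FPKM in KO cells and 9.57 FPKM in WT cells, and Zfp654 had 12.6 FPKM in KO cells and 7.41 FPKM in WT cells, each at a log2 ratio of 0.76. Zfp704 was the last gene inside the threshold, with 8.58 FPKM in KO cells, 5.51 FPKM in WT cells and a q-value of 0.047 in the authors' deposited table. The first gene outside it was Zfp276, with 5.87 FPKM in KO cells, 10.5 FPKM in WT cells and a q-value of 0.0619 in the authors' deposited table.

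The 30 genes called lower differed more, by 1.79- to 5.47-fold. Zfp219 (mm9 chr14:52604533-52640408), a partner of Sox9 in cartilage, had 6.39 FPKM in KO cells and 30.9 FPKM in WT cells (log2 ratio -2.27, SE 0.35), and the smallest q-value of the family in the authors' deposited table, 9.92e-09. The lowest ratio was that of Zfp628, with 1.13 FPKM in KO cells and 6.19 FPKM in WT cells (log2 ratio -2.45, SE 0.51). Zfp523, the counterpart of human ZNF76, had 0.882 FPKM in KO cells and 4.44 FPKM in WT cells (log2 ratio -2.33, SE 0.49). Each of these 3 genes stood in KO cells at under 1 part in 4 of its WT level. Zfp524 had 2.21 FPKM in KO cells and 9.14 FPKM in WT cells (log2 ratio -2.05, SE 0.38). Zfp574 had 3.54 FPKM in KO cells and 11.3 FPKM in WT cells (log2 ratio -1.68, SE 0.32).

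Several of the lower genes have roles in lymphocytes or in basic cell functions. Zfp335, a chromatin regulator that maturing T cells need in mice, had 8.13 FPKM in KO cells and 20.2 FPKM in WT cells (log2 ratio -1.31, SE 0.27). Zfp598, a ubiquitin ligase that marks collided ribosomes, had 6.47 FPKM in KO cells and 18.1 FPKM in WT cells (log2 ratio -1.48, SE 0.31). Zfp341, whose human counterpart activates the STAT3 gene, had 1.27 FPKM in KO cells and 3.19 FPKM in WT cells (log2 ratio -1.33, SE 0.35). Their products belong to different processes and are not all transcription factors. Zfp385, now Zfp385a and known as a partner of p53, had 1.02 FPKM in KO cells and 3.82 FPKM in WT cells (log2 ratio -1.91, SE 0.38). Zfp213, with a SCAN pattern, had 1.07 FPKM in KO cells and 3.25 FPKM in WT cells (log2 ratio -1.61, SE 0.36). Zfp647, the gene called lower that held the KRAB pattern, had 0.372 FPKM in KO cells and 1.62 FPKM in WT cells (log2 ratio -2.12, SE 0.52).

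The q-values of these genes other than Zfp219 in the authors' deposited table lay between 2.75e-06 (Zfp524) and 0.00173 (Zfp341). Zfp710 had 3.32 FPKM in KO cells and 8.03 FPKM in WT cells. Zfp513 had 4.98 FPKM in KO cells and 12.2 FPKM in WT cells. Zfp467, a factor known from the choice between fat and bone cells, had 0.215 FPKM in KO cells and 1.06 FPKM in WT cells, and was called at the lowest level of all. The other called genes were Zfp414, Zfp777, Zfp358, Zfp64, Zfp319, Zfp593, Zfp408, Zfp498, Zfp609, Zfp653, Zfp775, Zfp579 and Zfp691, and those without a finger pattern that are given next.

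The translated coding sequences bear out the family name for 213 of the 223 genes. Each of these held at least 1 finger pattern (a cysteine, 2 to 4 residues, a cysteine, 12 residues, a histidine, 3 to 5 residues and a histidine), with a median of 10 and at most 33, and 152 genes held the canonical linker between fingers. The 10 genes without the pattern were Zfp36, Zfp289, Zfp469, Zfp259, Zfp294, Zfp330, Zfp364, Zfp365, Zfp451 and Zfp650, several of which are named otherwise today. Of them 3 were called, all lower. Zfp36 encodes tristetraprolin, which holds zinc with 3 cysteines and 1 histidine and speeds the decay of cytokine mRNAs, and it had 41.9 FPKM in KO cells and 75.3 FPKM in WT cells (log2 ratio -0.84, SE 0.24). Zfp289, now Arfgap2 and part of COPI vesicle transport, had 10.7 FPKM in KO cells and 19.9 FPKM in WT cells. The row named Zfp469 matched Tnrc18, a chromatin protein, with 2.21 FPKM in KO cells and 6.78 FPKM in WT cells. Not called were Zfp294 (Ltn1, a ligase of stalled ribosomes) at 16.5 FPKM in KO cells and 16.3 FPKM in WT cells, and Zfp451, a SUMO ligase, at 20.7 FPKM in KO cells and 18 FPKM in WT cells. The pattern was sought in 1 reference transcript per gene, so fingers encoded by other transcripts would be missed. That of Zfp451 held 1680 coding bases in a length of 11876.

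The median ratios of genes with and without a strict KRAB pattern differed in sign, while the genes of both groups spread over both sides of 0. A strict KRAB pattern was found in 60 genes, of which 3 were called higher and 1 lower, with a median log2 ratio of 0.27 and 80.0% of ratios above 0. The 153 C2H2 genes without that pattern had 6 called higher and 26 lower, a median of -0.13 and 41.2% of ratios above 0. Some genes of the second group, such as Zfp445, held a broader KRAB pattern. With that pattern added, 81 genes qualified, with a median of 0.31, and the 132 C2H2 genes with neither had a median of -0.23. The 16 SCAN genes had a median of 0.13, with 1 called higher (6.25%) and 2 lower (12.5%). Genes with 1 to 4 fingers had a median of -0.15 (36 genes), with 5 to 9 fingers -0.14 (66 genes), with 10 to 14 fingers 0.16 (71 genes) and with 15 or more 0.17 (40 genes). The median GC content of the reference transcripts moved with this grouping, at 42.9% for the KRAB genes and 49.4% for the C2H2 genes without the pattern. Of other coding genes with 42% to 46% GC, 3.40% were called higher and 1.05% lower. The medians and counts of these groups are descriptions, since genes are not replicates of a genotype.

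The log2 ratio followed the base composition of the transcript closely in this table. Spearman's rho between the ratio and transcript GC content was -0.81 over the 223 Zfp genes. It was -0.75 over the tested coding genes with a reference transcript, all measured in the same libraries. The 9 genes called higher had 36.9% to 48.3% GC (median 40.0%), and the 30 called lower had 52.3% to 63.8% (median 58.7%), so the called groups did not overlap in GC. Calls among other coding genes were split by GC content too. Under 42% GC, 4.77% of them were called higher and 0.325% lower. At 55% or more, 0.0417% were called higher and 54.2% lower. Under 42% GC the median ratio was 0.43 for 55 Zfp genes and 0.29 for 922 other coding genes. From 42% to 46% it was 0.25 for Zfp genes and 0.14 for the others, and from 46% to 50% it was 0.09 and -0.05, in the same order. From 50% to 55% it was -0.38 for Zfp genes and -0.46 for the others. At 55% or more it was -1.29 for 40 Zfp genes, 26 of them (65.0%) called lower. For 2400 other coding genes it was -1.08, with 1300 of them (54.2%) called lower. Within each class below 55% the Zfp genes thus had the higher median, and above it the lower one.

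**Figure D2:**
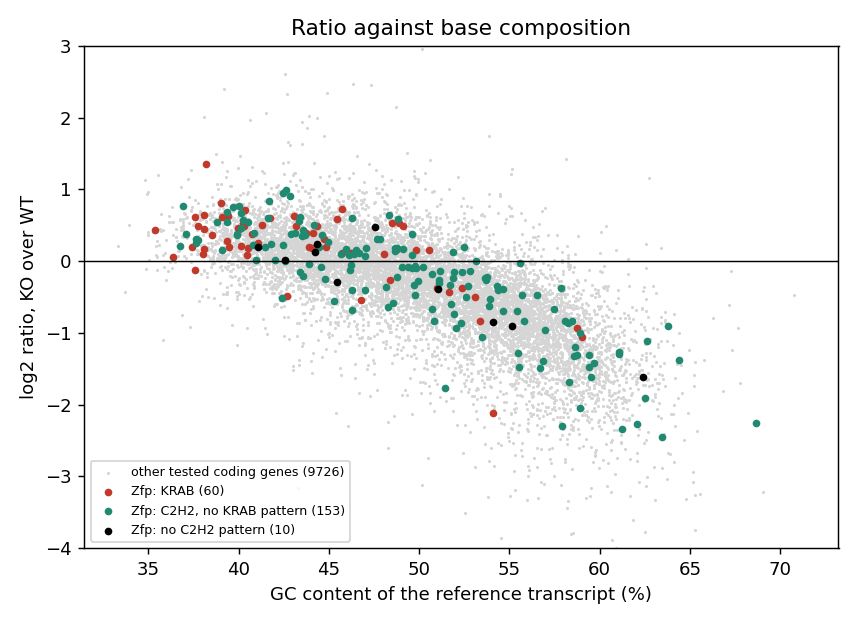
Log2 ratio of KO over WT (vertical) against the GC content of the reference transcript in percent (horizontal) for Zfp genes, coloured by protein pattern, and for other tested coding genes in grey, with genes beyond -4 or 3 not drawn. The Zfp points slope down with the grey cloud (rho -0.81 and -0.75), and KRAB genes crowd the left side at a median of 42.9% GC.

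A smooth trend of the ratio with GC content and transcript length was therefore fitted over 8993 coding genes of at least 1 FPKM and removed. It took up 58.9% of the variance of the ratios. After that, 0.823% of these genes were called higher and 0.99% lower (163 genes, adjusted p under 0.05 from the implied standard errors with Benjamini-Hochberg adjustment), and of the 188 Zfp genes in the fit none was called in either direction, with 17 at an unadjusted p under 0.05. All 9 genes called higher kept a value above 0, between 0.33 and 0.99. Of the 26 lower genes with a value, 21 stayed below 0 and 5 lay above it, and the range was -0.91 to 0.68. Zfp760 stood at 0.99, Zfp607 at 0.79 and Zfp260 at 0.59.

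Zfp219 stood at -0.78 after trend removal, Zfp335 at -0.14 and Zfp579 at 0.68. The smallest adjusted p of the family, 0.0755 by the same adjustment, belonged to Zfp511, a gene chosen here after its values were seen. It had 21.5 FPKM in KO cells and 22 FPKM in WT cells, a GC content of 55.6% and a ratio of 0.98 after trend removal. The median of the 188 Zfp genes was 0.05, with 59.0% of values above 0. The KRAB genes had a median of 0.15 (49 genes) and the C2H2 genes without the pattern 0.04 (130 genes).

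**Figure D3:**
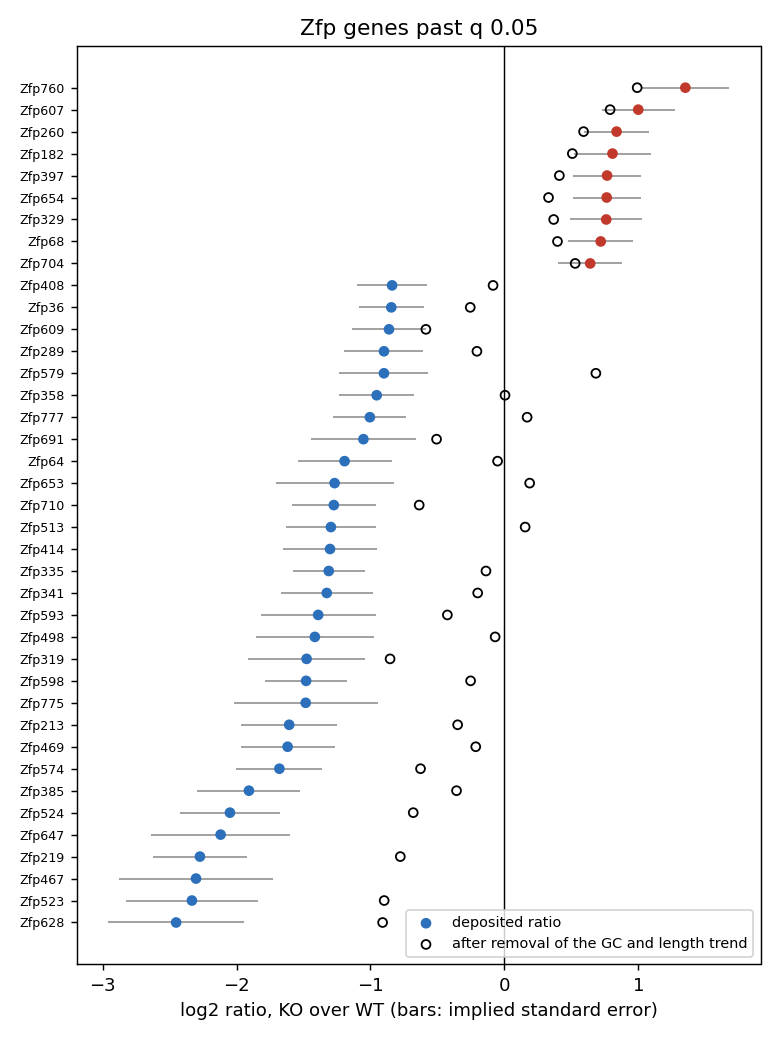
Log2 ratio of KO over WT for the 39 called Zfp genes, 1 line per gene, with filled points for the deposited ratio (red higher, blue lower in KO cells), bars for the implied standard error and open circles for the ratio after trend removal. The open circles of the 9 higher genes lie right of 0 (0.33 to 0.99), and those of the lower genes lie nearer to 0 than the filled points, 5 of them right of it.

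The microRNAs encoded by the genes deleted in the KO mice share 1 seed, the bases with which a microRNA pairs to its targets. How much microRNA with this seed remained in KO cells, from other genes for example, was not analysed here. The mature sequences below are from RefSeq (GRCm38.p6), 5′ to 3′, with the seed, bases 2 to 8, in capitals, and they show that miR-181a and miR-181b would pair with the same site.
mmu-miR-181a-5p, chr1:137966468-137966490, plus strand: aACAUUCAacgcugucggugagu
mmu-miR-181b-5p, chr1:137966650-137966673, plus strand: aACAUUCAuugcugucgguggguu

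The matching site in a transcript reads TGAATGT, and it was searched on the sense strand of the coding sequence and of the 3′ UTR of 1 reference transcript per gene. In the coding sequence it was found in 93 Zfp genes (41.7%), against 11.5% of 9738 other tested coding genes. The density was 0.675 matches per kb of coding sequence in Zfp genes and 0.0828 per kb in the others. At least 3 matches were found in 42 Zfp genes (18.8%) and in 49 other genes (0.503%), of which 30 also held 5 or more finger patterns. In 3′ UTRs the family was close to the rest, with a match in 20.2% of Zfp genes and 16.9% of the others, at 0.170 and 0.144 matches per kb in the same order.

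The coding matches fall in the repeated part of the finger. Of 303 matches in Zfp genes, 292 (96.4%) lay in the reading frame in which the last 3 bases are a cysteine codon, and 260 (85.8%) ended at the first (143) or the second (117) zinc-holding cysteine of a finger pattern. Of the 210 distances between neighbouring matches of a gene, 69 were exactly 84 bases, the 28 codons of 1 finger with its linker, and 132 (62.9%) were a whole multiple of it. The examples below are 30 bases of coding sequence of the reference transcript (GRCm38), with the match in capitals, from genes with many matches or called higher. They show the site at the first cysteine in the examples from Zfp182, Zfp607 and Zfp97. Those from Zfp260, Zfp758 and Zfp760 show it at the second. Zfp182 and Zfp260 also held matches at the other of these cysteines.
Zfp182, chrX:21030970-21030999, minus strand: aagccttaTGAATGTaatcaatgtgggaaa
Zfp607, chr7:27878101-27878130, plus strand: aaaccctaTGAATGTgaggagtgtgggaag
Zfp97, chr17:17144706-17144735, plus strand: aaaccctaTGAATGTaatcaatgtgggaaa
Zfp260, chr7:30105742-30105771, plus strand: ggctgcaaTGAATGTgggaaggccttttct
Zfp758, chr17:22375414-22375443, plus strand: aaatgtagTGAATGTgacaaatgctttatc
Zfp760, chr17:21722554-21722583, plus strand: aaatgtaaTGAATGTgataaaggcttttca

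The ratio was higher in Zfp genes with more coding matches. The median log2 ratio was -0.29 with 0 matches (130 genes), 0.11 with 1 (38 genes), 0.19 with 2 (13 genes) and 0.44 with 3 or more (42 genes). In the last class 40 of 42 ratios were above 0, with 6 genes called higher (1.79% of all tested models were) and 0 lower in the authors' deposited test. The exceptions were Zfp184, with 1.72 FPKM in KO cells and 1.77 FPKM in WT cells, and Zfp619, with 0.269 FPKM in KO cells and 0.377 FPKM in WT cells. Other coding genes had medians in the same order, at -0.31, -0.03, 0.08 and 0.38, but of the 49 with 3 or more matches 0 were called higher and 1 lower. Of the 9 Zfp genes called higher, 7 held a coding match, 6 of them at least 3. Of the 30 called lower, 3 held a coding match, 1 each. Among all 223 Zfp genes, 41.7% held a coding match and 18.8% held at least 3. GC content also differed between these classes of Zfp genes, with medians of 51.1%, 47.9%, 44.3% and 41.1%. Under 46% GC, 15.4% of Zfp genes with 3 or more matches and 2.78% of those with 0 were called higher, with 0 lower in both. Other coding genes under 46% GC with 0 matches were called higher in 3.56% and lower in 0.857%. Of the 32 others with 3 or more matches under 46% GC, 0 were called in either direction.

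With the trend of GC content and length removed, the medians of the 4 classes were 0.01, 0.08, 0.00 and 0.20 in Zfp genes and -0.01, 0.06, 0.03 and 0.23 in the other coding genes. Values above 0 made up 81.6% of the 38 Zfp genes with 3 or more matches and 75% of the 40 other genes. Among genes under 46% GC alone, the trend-removed median was 0.20 for 35 Zfp genes with 3 or more matches (82.9% above 0) and -0.03 for 26 Zfp genes with 0 (46.2% above 0). The other coding genes under 46% GC had 0.26 with 3 or more matches (25 genes, 80.0% above 0) and -0.02 with 0 (2055 genes, 47.1% above 0). Spearman's rho between the number of coding matches and the ratio over Zfp genes was 0.52, and 0.27 after trend removal. Related genes share their sites by descent, so these genes are not independent points.

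**Figure D4:**
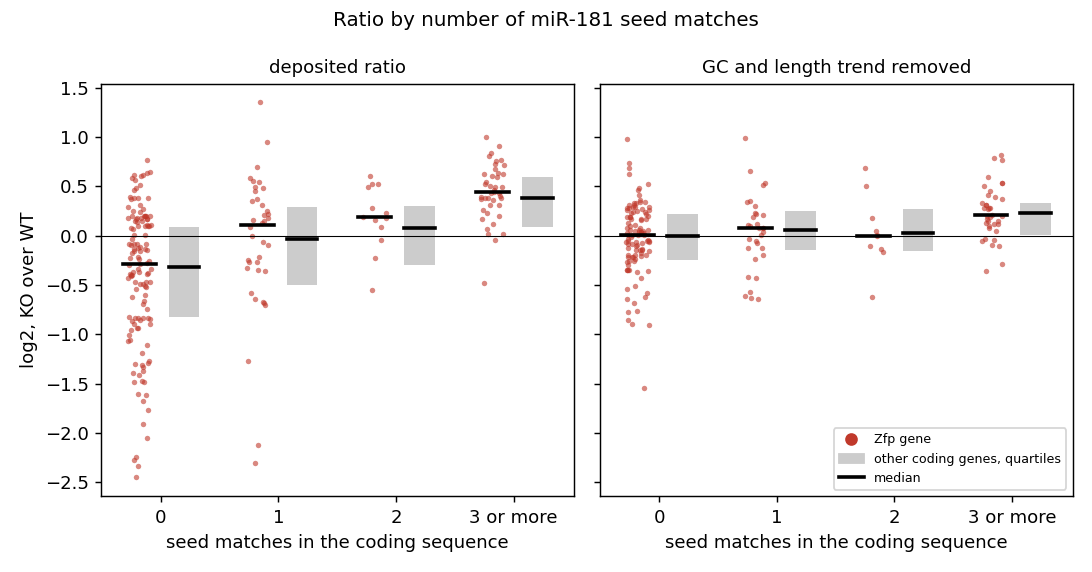
Log2 ratio of KO over WT by the number of coding miR-181 seed matches, as deposited (left) and with the GC and length trend removed (right), with 1 red point per Zfp gene, grey bars for the quartiles of other coding genes and black lines for medians. The Zfp medians run from -0.29 with 0 matches to 0.44 with 3 or more on the left, and from 0.01 to 0.20 on the right.

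The genes richest in matches were not those with the highest ratios. Zfp820 held 13 coding matches, with 3.70 FPKM in KO cells and 3.54 FPKM in WT cells (log2 ratio 0.06, SE 0.32). Zfp758 held 11, with 10.05 FPKM in KO cells and 7.46 FPKM in WT cells (log2 ratio 0.43, SE 0.28). Zfp40 held 11, with 5.80 FPKM in KO cells and 4.12 FPKM in WT cells (log2 ratio 0.49, SE 0.28). These differences were within 2 implied standard errors, and none was called. Zfp97 held 11, with 2.65 FPKM in KO cells and 1.72 FPKM in WT cells (log2 ratio 0.62, SE 0.70). Zfp167, now Zkscan7, held 10, with 2.13 FPKM in KO cells and 1.66 FPKM in WT cells (log2 ratio 0.37, SE 0.41). Of the genes called higher, Zfp182 held 8 matches, Zfp607 held 7, Zfp260 and Zfp68 held 6, Zfp397 held 5, Zfp329 held 3 and Zfp760 held 1. Zfp654 and Zfp704 held none in the coding sequence, and their 3′ UTRs held 1 and 3 matches, in the same order. Zfp809, a KRAB gene known in mice for silencing integrated leukaemia viruses, held 3 coding matches and was not called, with 24.7 FPKM in KO cells and 14.9 FPKM in WT cells (log2 ratio 0.73, SE 0.30).

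By the positions in the table (mm9), 117 tested Zfp genes lay in 24 clusters of at least 3 Zfp symbols with gaps of at most 500 kb, and 106 were scattered. The family was most frequent on chromosome 7 with 61 genes, followed by chromosome 17 with 23 and chromosome 13 with 18. Clustered genes had a median log2 ratio of 0.16, with 6 called higher (5.13%) and 13 lower (11.1%). Scattered genes had a median of -0.09, with 3 called higher (2.83%) and 17 lower (16.0%). Of all tested models, 1.79% were called higher and 15.3% lower. The median GC content was 46.2% for the clustered genes and 48.2% for the scattered ones. KRAB genes had similar medians in both places, 0.25 for 46 clustered and 0.28 for 14 scattered genes. C2H2 and other genes without the KRAB pattern also did, at -0.13 for 71 clustered and -0.14 for 92 scattered genes. With the trend removed, the medians were 0.10 for clustered and 0.01 for scattered genes.

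The clusters differed among themselves. Of 19 clusters with at least 3 tested genes, 13 had a median ratio above 0 and 6 below. The cluster with most tested genes, chr7:24866962-26012524, held 12 of them and had a median of -0.34 at a median GC content of 50.3%. It ran from Zfp111 at a log2 ratio of 0.61 (0.413 FPKM in KO cells, 0.270 FPKM in WT cells) down to Zfp574 at -1.68, its single called gene. The cluster at chr7:30546515-30954746 also had 12 tested genes, 8 of them with a KRAB pattern, and a median of 0.14. Its highest ratio was that of Zfp260, the called gene there, and its lowest that of Zfp27 (2.47 FPKM in KO cells, 3.84 FPKM in WT cells, log2 ratio -0.64). The third, at chr13:65376416-67931924, had 11 tested genes with a median of 0.22 and a median GC content of 39.1%. None of the 11 was called, and they lay between Zfp456 at 0.62 and Zfp455 at -0.12, all above 0 except Zfp455.

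Some clusters, chosen after their values were seen, had all their ratios on the same side of 0. All 9 tested genes at chr17:21145912-22514248 had ratios above 0, with a median of 0.43, and Zfp760 was the called one. That cluster held 8 KRAB genes and 32 coding seed matches at a median GC content of 38.2%. All 4 tested genes at chr7:4836689-4990036 had ratios below 0, with a median of -1.47 at 61.2% GC, and Zfp628, Zfp524 and Zfp579 were called there. All 8 at chr7:134376768-135039131 were below 0, with a median of -0.84 at 53.8% GC, and none was called. For 6 of them, which share a single locus in the table, the implied SE was 1.18 to 11.8 and exceeded the ratio, so their shared sign is within the error. Over the 19 clusters, Spearman's rho between the median ratio and the median GC content was -0.73, and members of a cluster share sequence and, in 4 rows with 2 symbols each, the value itself. Reads of near-identical neighbours may have been split between copies, and the sources used here do not say how they were assigned.

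**Figure D5:**
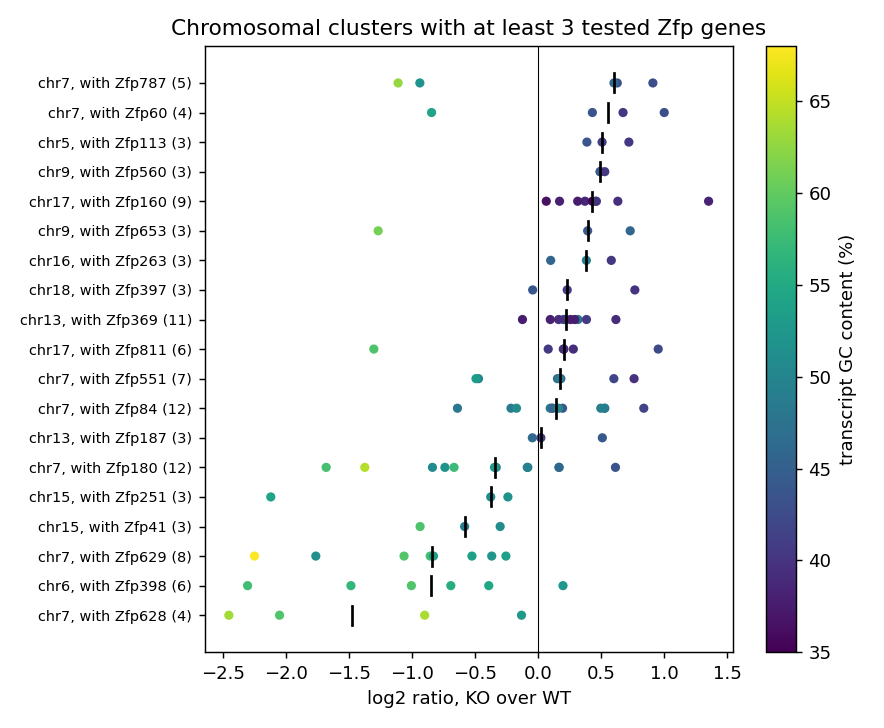
Log2 ratio of KO over WT (horizontal) of the tested Zfp genes in the 19 clusters with at least 3 of them, 1 row per cluster labelled by chromosome, a member and the number of tested genes, with points coloured by transcript GC content in percent and black ticks for medians. Clusters of mostly dark, GC-poor points have medians above 0, and those of brighter, GC-rich points lie at the bottom, down to -1.47. The order is not strict. The top cluster, with Zfp787, has a median GC content of 46.3%, and the chromosome 13 cluster with Zfp369, at 39.1%, has a median ratio of 0.22.

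Partners and relatives of the family were set beside the 17.1% of all tested models that were called. Of 21 tested KRAB corepressors and heterochromatin partners, 0 were called higher and 2 lower (9.52% in all), with a median log2 ratio of 0.02. Trim28, the corepressor that KRAB domains bind, had 46.8 FPKM in KO cells and 105 FPKM in WT cells (log2 ratio -1.16, SE 0.24), and a q-value of 4.04e-05 in the authors' deposited table. Mbd3, a subunit of the NuRD complex, had 14.2 FPKM in KO cells and 46.8 FPKM in WT cells (log2 ratio -1.72, SE 0.58). After trend removal Trim28 stood at 0.09 and Mbd3 at -0.09, and neither was called, at GC contents of 59.6% and 62.9% in the same order. Setdb1, the H3K9 methyltransferase that Trim28 recruits, was not called, with 27.2 FPKM in KO cells and 22.4 FPKM in WT cells.

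Of 29 tested C2H2 regulators of lymphocytes with other names, 1 was called higher and 5 lower (20.7% in all), with a median of -0.22. Klf6, an early-response Krüppel-like factor, had 29.5 FPKM in KO cells and 15.7 FPKM in WT cells (log2 ratio 0.91, SE 0.24). Zbtb17, known as Miz-1 and needed by early thymocytes, had 6.8 FPKM in KO cells and 20.8 FPKM in WT cells (log2 ratio -1.61, SE 0.29). Bcl6, the repressor of germinal centre and follicular helper cells, had 41.8 FPKM in KO cells and 75.4 FPKM in WT cells (log2 ratio -0.85, SE 0.26). Klf13 had 10.7 FPKM in KO cells and 31.3 FPKM in WT cells (log2 ratio -1.55, SE 0.50). The others called lower were Egr1 and Maz. Of 13 tested KRAB or SCAN genes listed under other names, 0 were called higher and 2 lower (15.4% in all), with a median of -0.23. Of these, Zkscan17 and Zscan20 lie on the rows of Zfp496 and Zfp31, which are also counted in the family, and neither was called. The median of the 11 genes without them was -0.05. Zscan2 had 8.38 FPKM in KO cells and 18 FPKM in WT cells, and Zkscan14 had 4.84 FPKM in KO cells and 8.57 FPKM in WT cells. None of the genes of these 3 lists was called after trend removal.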

How the data were processed

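RNA of sorted thymocytes was measured in 6 libraries, 3 per genotype. The submitters' processing notes name TopHat2 and the build mm9. The sources used here do not give the counting and testing tools or the annotation. Per the file headers, the authors deposited 1 FPKM value per genotype, a log2 ratio of WT over KO, a test statistic (a score), a p-value and a q-value. Checked on the table, a Benjamini-Hochberg adjustment of the deposited p-values gave back the q-values to within 1.89e-06. No test was run on single libraries, so p-values rest on the authors' test, and the labels do not say whether replicates were separate animals. FPKM does not correct for base composition, and its total was 297352 in KO cells and 360688 in WT cells.

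The ratio was turned to KO over WT. Per symbol, the row with the highest summed FPKM was kept. For 38 genes the row also held another name, which can belong to the same gene, as Zkscan17 does on the row of Zfp496. Of the Zfp genes, 8 shared 4 rows. All 223 genes were matched to 1 GENCODE M21 transcript (GRCm38), 26 through an older name (Zfp607 through Zfp607a). Protein patterns came from its translated coding sequence, because the protein table foreseen in the design was not used here. The trend was a robust regression (statsmodels 0.14.6) on GC content and log2 length, each as a cubic spline of 5 pieces, over coding genes of at least 1 FPKM. For length, 69 genes whose transcript was over 1.2 times the span of the model were left out. Of the Zfp genes, 188 had a value. The fit was also run on data simulated from this same trend with added changes and noise. That run cannot show how well the trend suits the measured ratios.

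The genes, lists and rules were chosen with earlier results of these data known. Named genes were up to 15 called per direction by q, the 10 most abundant, the 5 with most coding matches, those without a finger pattern, the 3 clusters with most tested genes and up to 3 called per direction of each partner list. Zfp184, Zfp276, Zfp511, Zfp579, Zfp619, Zfp759, Zfp809, Setdb1, Egr1, Maz and the called genes given by name alone were added after their values were seen. A marker of the double-positive list is not reported here.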

Additional observations from a re-analysis of the deposited data

How the results depend on the processing

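Of 83 alternative values, 52 kept to within 1.5 times of a count or 0.1 of a median, and 31 moved. The 9 Zfp genes called higher became 3 at q under 0.01, 14 at q under 0.1, 18 with ratios centred on the median and 0 with the GC and length trend removed, and the 30 called lower became 0 with the trend removed. Centring moved the family median to 0.23. With cluster gaps of at most 200 kb, 7 clustered genes were called lower. An 8-base match (TGAATGTA) gave medians of -0.15, 0.29 and 0.56 for 0, 1 and 2 matches, and a 6-base match (GAATGT) gave -0.34 for 1. Trend removal gave 0.00725, 8.63e-05 and 0.20 for 0, 2 and 3 or more matches, 0.15 for KRAB genes, 0.0364 for C2H2 genes without the pattern and 0.0101 for scattered genes. Corepressors called lower became 1 at q under 0.01 and 0 with the trend removed, and 1 was called higher when centred. Lymphocyte regulators called higher became 2 at q under 0.1, 3 when centred and 0 with the trend removed, and those called lower became 2 at q under 0.01, 2 when centred and 0 with the trend removed. Of the other KRAB or SCAN genes, 1 was called higher at q under 0.1 and 1 when centred, and those called lower became 1 at q under 0.01, 1 when centred and 0 with the trend removed. The trend removal tests fewer genes. Otherwise the cause was not tested. No paired analysis was possible because the table gives 1 value per genotype, and no replicate could be left out for the same reason.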

Other observations

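The Zfp genes were also grouped by seed matches in the 3′ UTR, a comparison added after the data were seen. The median log2 ratio was 0.31 for 35 genes with 1 match, 3 of them called higher and 1 lower, and -0.06 for 178 genes with 0, of which 5 were called higher and 29 lower. The 10 genes with 2 or more matches had a median of 0.09, with 4 ratios below 0. With the trend of GC content and length removed, the medians were 0.17 with 1 match (28 genes), 0.03 with 0 (152 genes) and 0.22 with 2 or more (8 genes). Other coding genes had deposited medians of 0.03 with 1 match, -0.35 with 0 and 0.25 with 2 or more, and trend-removed medians of 0.04, -0.01 and 0.11 in the same order. Of these others, 3.09% were called higher and 8.60% lower with 1 match, and 0.939% higher and 21.1% lower with 0. With 2 or more, 6.62% were called higher and 4.73% lower. The median GC content of the Zfp genes was 42.6% with 1 match, 48.5% with 0 and 44.4% with 2 or more. Of the 10 Zfp genes with at least 2 matches in the 3′ UTR, Zfp704 was the called one. Zfp820 and Zfp97 held 7 each beside their 13 and 11 coding matches.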
